A study of Mus musculus with 35 samples.

Results

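A set of 10 genes of lipid peroxidation and fatty acid desaturation were followed across mouse thymocytes. They are Acsl4, Acsl3, Acsl5, Lpcat3, Alox5, Ptgs2, Cybb, Aifm2, Scd1 and Scd2, taken as the 10 rows with these names among the 41096 genes of the deposited count table. Each was read in all 35 libraries, whatever its level or its change.

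The study measured bulk RNA-seq in thymocytes separated by flow sorting, in 7 groups of 5 libraries. Early thymocytes without surface CD4 or CD8 are called double negative (DN), and the later cells that show both are called double positive (DP). Young DN and young DP came from mice labelled wild type at 10 weeks of age, and aged DN and aged DP from mice labelled wild type at 60 weeks. The controls WT DN and WT DP carried the genotype Mettl3flox/wt; Cd4Cre at 10 weeks, so they also carry the Cre and 1 floxed allele. KO DP came from mice of 10 weeks with the genotype Mettl3flox/flox; Cd4Cre. Mettl3 encodes the catalytic subunit of the RNA methyltransferase that writes N6-methyladenosine, and the Cd4Cre transgene removes floxed sequence once a cell has turned on Cd4 expression. DN cells of the knockout were not analysed here. Nothing in the labels tells whether the 5 replicates are separate animals. A p-value here therefore sets a group difference only against the spread among these libraries, which may be technical. Nor do the labels tell whether the sort removed other lineages.

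Membrane phospholipids that hold polyunsaturated acyl chains are the ones prone to peroxidation. A fatty acid is first activated by an acyl-CoA synthetase and then placed into a phospholipid by a lysophospholipid acyltransferase; Acsl4 and Lpcat3 do this for polyunsaturated chains and Acsl3 activates monounsaturated ones that peroxidise poorly. Scd1 and Scd2 desaturate stearoyl-CoA and palmitoyl-CoA and so supply those monounsaturated chains. Lipoxygenases (Alox5) and cyclooxygenases (Ptgs2) oxygenate arachidonate enzymatically, Cybb is the membrane subunit of the phagocyte NADPH oxidase that makes superoxide, and Aifm2 (FSP1) regenerates the ubiquinol that traps lipid radicals.

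The libraries held 12391908 to 18820157 counts, with 12306 to 19677 genes counted at least once. Levels below are CPM, read counts relative to the library total, scaled by TMM (edgeR's correction for library composition) over all 35 libraries together. Mettl3, the targeted gene, read 51.7 ± 5.13 CPM (SD, n = 5) in the knockout DP libraries and 50.8 ± 3.85 CPM in their controls; a count over the whole gene keeps reads outside the deleted part and so does not check the deletion. The sorted stages had their markers: in young DP against young DN, 12 of 12 DN stage markers were lower and 10 of 10 DP stage markers higher. 6 libraries stand apart in marker genes or in genes detected, namely aged DN 1, aged DN 5, aged DP 1, aged DP 5, WT DN 2 and KO DP 2. The set was fixed by name, without a numerical threshold. Aged DP 1, with 17909 genes counted, lay within its group's range of 15869 to 18153, and KO DP 3, with 16042, is not in the set. Summed over 14 B cell markers, aged DN 5 read 12304 CPM and WT DN 2 read 4087 CPM, against 128 to 756 CPM in the other 13 DN libraries.

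RefSeq promoter windows on GRCm38.p6 matched 8 of the 10 genes, all but Scd1 and Scd2. Among the genes with a window, Cybb, Alox5, Ptgs2 and Aifm2 were at most 1.81 CPM in every young DP and WT DP library. Shown are the 250 bases before the start of the first 3, with Aifm2 left out, and of Lpcat3, which was higher in DP. They lie at chrX:9469325-9469574 on the minus strand (Cybb), chr6:116461179-116461428 on the minus strand (Alox5), chr1:150099781-150100030 on the plus strand (Ptgs2) and chr6:124662854-124663103 on the plus strand (Lpcat3), and each is written 5′ to 3′ on the gene's strand. Capitals mark matches, on either strand, to the motifs searched.
Cybb: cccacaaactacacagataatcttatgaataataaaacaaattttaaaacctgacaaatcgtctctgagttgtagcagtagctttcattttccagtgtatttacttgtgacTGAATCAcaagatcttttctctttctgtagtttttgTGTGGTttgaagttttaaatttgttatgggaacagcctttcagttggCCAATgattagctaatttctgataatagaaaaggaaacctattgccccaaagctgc
Alox5: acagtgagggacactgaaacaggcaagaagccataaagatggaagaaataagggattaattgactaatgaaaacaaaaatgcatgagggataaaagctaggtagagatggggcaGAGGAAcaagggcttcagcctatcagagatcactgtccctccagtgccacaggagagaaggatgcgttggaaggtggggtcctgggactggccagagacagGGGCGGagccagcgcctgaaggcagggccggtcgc
Ptgs2: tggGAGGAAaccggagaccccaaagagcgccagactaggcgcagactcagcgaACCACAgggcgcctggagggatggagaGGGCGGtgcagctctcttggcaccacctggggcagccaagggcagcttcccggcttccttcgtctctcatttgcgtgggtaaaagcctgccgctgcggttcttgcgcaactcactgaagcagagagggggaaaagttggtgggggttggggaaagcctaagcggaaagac
Lpcat3: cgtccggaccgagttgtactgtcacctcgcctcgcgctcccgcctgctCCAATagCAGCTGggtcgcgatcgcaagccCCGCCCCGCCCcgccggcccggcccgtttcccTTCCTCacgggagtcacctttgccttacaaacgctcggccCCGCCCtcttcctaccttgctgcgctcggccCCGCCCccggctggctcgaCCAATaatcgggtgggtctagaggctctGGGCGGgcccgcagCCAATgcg

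The search used 8 motifs, each given with the share of 32851 such windows that hold it: the TATA box TATAAA (12.4%), the CCAAT box with these letters (33.8%), the GC box GGGCGG (32.7%), the PU.1 type GAGGAA (23.3%), the RUNX type TGTGGT (14%), the E-box CAGCTG (13%), the cyclic AMP element (CRE) TGACGTCA (1.55%) and the AP-1 type TGANTCA (6.75%). The Cybb window, at 34% GC, held 1 CCAAT box, 1 RUNX type and 1 AP-1 type match. The Alox5 window (52.8% GC) held 1 GC box and 1 PU.1 type match, and the Ptgs2 window (61.6% GC) held these and 1 RUNX type match. The Lpcat3 window, at 70% GC, held 3 CCAAT boxes, 5 GC boxes, 1 PU.1 type match and 1 E-box, with 2 of its GC boxes overlapping by 1 base. No TATA box match was in any of the 8 windows, and the PU.1 type occurred in windows of genes that were lower and of a gene that was higher in DP. These are matches of letters and say nothing of binding.

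**Figure D1:**
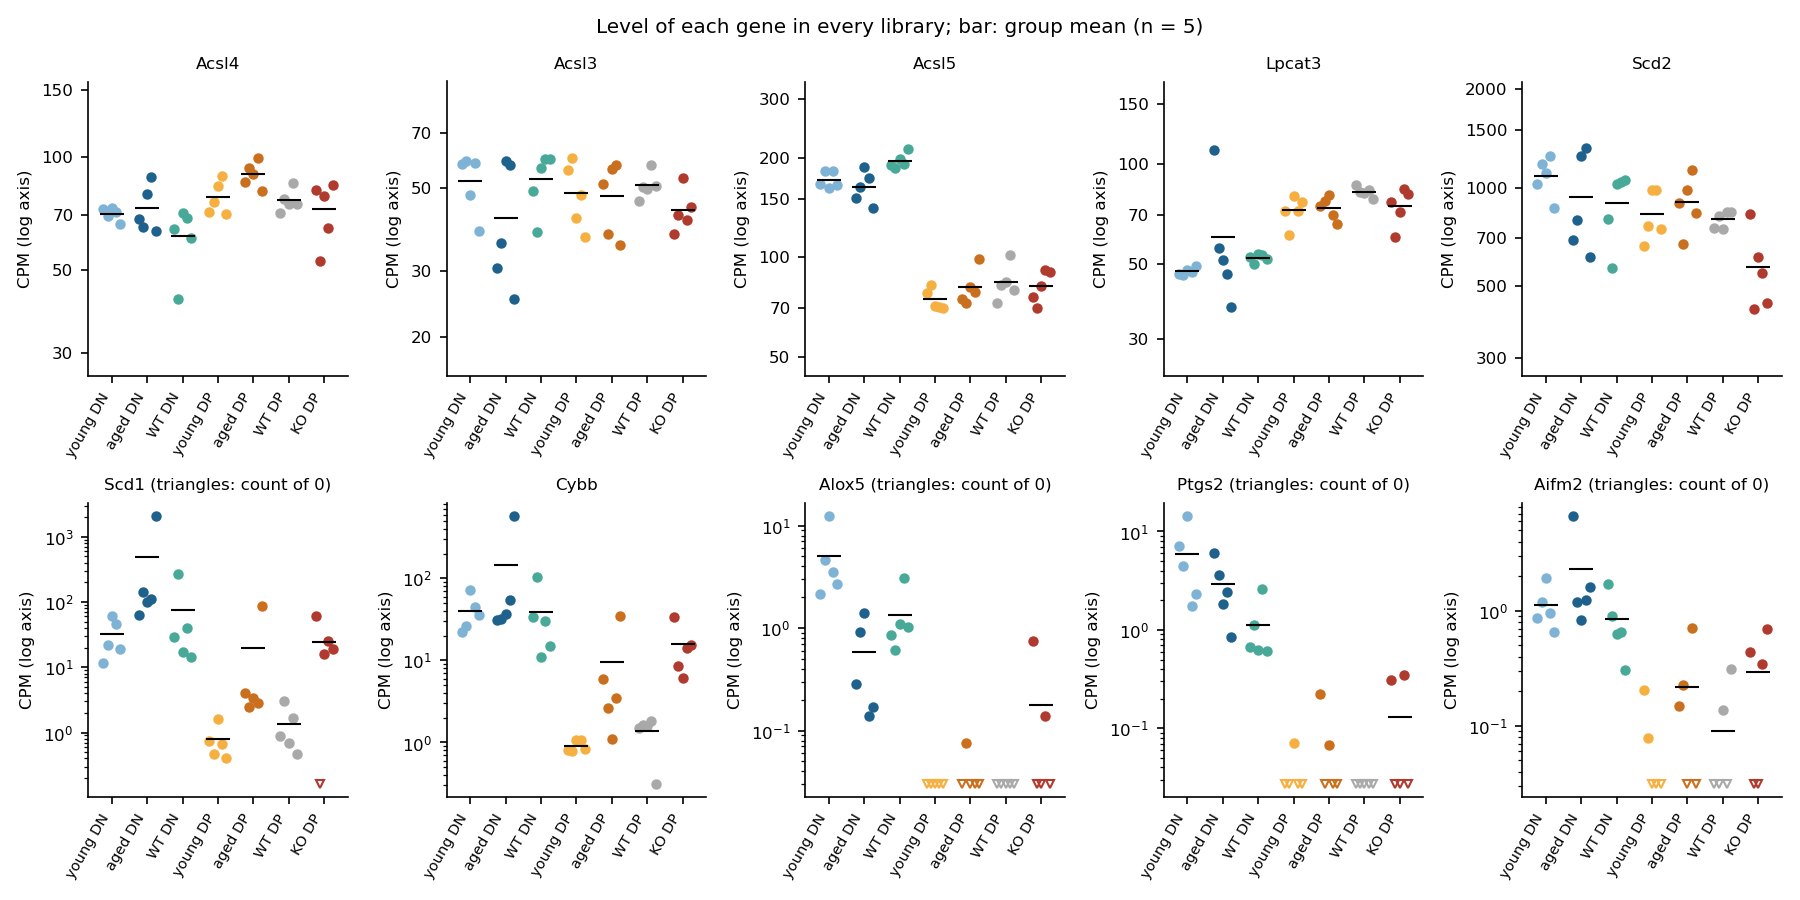
CPM of each gene (log axes, scaled per gene) in the 35 libraries; circles are libraries, open triangles libraries with a count of 0, and bars group means (n = 5), left out where the mean is under the lowest circle. The upper row holds Acsl4, Acsl3, Acsl5, Lpcat3 and Scd2, which had counts in every library. Between young DN and young DP, Acsl5 was lower and Lpcat3 higher in DP without overlap, and Scd2 was lower with overlap. In the lower row 5 genes fall to a few CPM or to 0 in most DP libraries.

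Per kilobase of the gene length in the table, Scd2 had the highest group mean of the 10 in every group, from 104.8 ± 30.1 CPM per kb in KO DP to 199 ± 27.6 in young DN. In young DN, Acsl5 followed at 54.4, then Lpcat3 at 14.6, Acsl4 at 13.3, Acsl3 at 12, Cybb at 6.89, Scd1 at 6.61, Ptgs2 at 1.30, Alox5 at 1.23 and Aifm2 at 0.271 CPM per kb. The neighbours from Acsl4 to Alox5 in this order overlapped between libraries. In young DP the order began with Scd2 at 151.7, Acsl5 at 23.7, Lpcat3 at 22.2, Acsl4 at 14.7 and Acsl3 at 11.1 CPM per kb, with Acsl5 overlapping Lpcat3 and Acsl4 overlapping Acsl3. The other 5 genes were at or under 0.163 CPM per kb there. Aged DN was the group in which Scd1 ranked next to Scd2, at 102 ± 180 CPM per kb, and it overlapped both Scd2 and Acsl5.

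The stages were compared first. In young DP against young DN, Lpcat3 was higher in DP, while Acsl5, Alox5, Aifm2, Ptgs2, Scd1, Scd2 and Cybb were lower, and Acsl4 and Acsl3 did not pass the test. A gene was called when edgeR's 2-sided quasi-likelihood test, adjusted by Benjamini-Hochberg over all genes tested, gave a p under 0.05. Of the 10 genes, 1 was called higher and 7 lower. Over all 13772 genes tested, 33.9% were called higher and 36.5% lower, 70.4% either way. Alox5, Ptgs2 and Aifm2, with 0, 1 and 4 counts in all in young DP, passed the filter on low counts only through young DN. So did Scd1, with 6 to 23 counts per library in young DP. Their calls could hardly have gone the other way, so the count of 7 is not to be read against the 36.5%. Because the libraries are bulk, fewer cells of a type and less RNA per cell cannot be told apart.

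Among the acyl-CoA synthetases, Acsl5, an enzyme of the endoplasmic reticulum and mitochondria, read 162 to 182 CPM in young DN and 70.4 to 82.4 CPM in young DP. The libraries did not overlap, and the level fell by 1.19 on the log2 scale (SE 0.06, adjusted p = 3.49e-10). Acsl5 was lower in DP to a like degree in the other stage comparisons, with log2 changes of -0.997 (SE 0.12, adjusted p = 0.00015) in aged and -1.22 (SE 0.09, adjusted p = 1.2e-07) in WT libraries. Acsl4, which prefers arachidonate, read 66.2 to 73 CPM in young DN and 70.2 to 89.0 CPM in young DP (log2 0.15, SE 0.07, adjusted p = 0.0783). It was called higher in DP in the aged libraries (log2 0.30, SE 0.11, adjusted p = 0.0449) and in the WT libraries (log2 0.32, SE 0.12, adjusted p = 0.0397), with overlapping ranges in both. The aged call ended without 8 of the 10 libraries left out in turn and the WT call without 3 of 10. Acsl3 read 38.2 to 58.8 CPM in young DN and 37.0 to 59.9 CPM in young DP (log2 -0.10, SE 0.14, adjusted p = 0.539), and was called in no comparison.

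Lpcat3, the acyltransferase, read 46.5 to 49.3 CPM in young DN and 61.4 to 79.9 CPM in young DP, with no overlap. The rise was 0.61 on the log2 scale (SE 0.07, adjusted p = 2.18e-06). In WT libraries it went from between 50 and 53.8 CPM in DN to between 78.6 and 86.2 CPM in DP (log2 0.65, SE 0.07, adjusted p = 4.93e-06). In aged libraries the difference was 0.29 (SE 0.25, adjusted p = 0.375), where aged DN 1 alone read 109.8 CPM against 37.3 to 56.1 CPM in the other 4 aged DN libraries. Without aged DN 1, Lpcat3 was called there too (log2 0.62, adjusted p = 0.00195). That library also had the highest sum of gamma delta and innate-like T cell markers, 7787 CPM against 624 to 796 CPM in the other aged DN libraries; their part in the Lpcat3 value was not tested.

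The 2 desaturases behaved differently in level and in change. Scd2 read 863 to 1251 CPM in young DN and 660 to 986 CPM in young DP, with overlapping ranges (log2 -0.39, SE 0.12, adjusted p = 0.00848); in a fit over all 35 libraries the adjusted p was 0.0874. Scd1 read 11.7, 21.7, 60.6, 46.5 and 19.4 CPM in the 5 young DN libraries and 0.75, 0.47, 1.63, 0.667 and 0.411 CPM in young DP. The ranges did not overlap, and Scd1 was 40.2-fold lower in DP (log2 -5.33, SE 0.51, adjusted p = 2.4e-07). It was also lower in WT DP than in WT DN (log2 -5.79, SE 0.94, adjusted p = 0.000126; -4.20 without WT DN 2). In aged libraries the log2 change was -4.62 (SE 1.53, adjusted p = 0.0325), against -2.33 without aged DN 5 (adjusted p = 0.107) and -7.30 without aged DP 5. The call also ended without aged DP 1, 2, 3 or 4 (adjusted p from 0.0683 to 0.0715). These fits leave out the pairing of the aged libraries by number. With a replicate block for it, Scd1 stayed called at a lower adjusted p, given in the last section.

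Cybb, the superoxide-making subunit, followed the same contrast. The young DN libraries read 22.5, 25.9, 71.3, 44.6 and 35.5 CPM and the young DP libraries 0.819, 0.783, 1.07, 1.07 and 0.821 CPM. Cybb was 43.4-fold lower in young DP (log2 -5.44, SE 0.35, adjusted p = 3.01e-09). It was lower in WT DP than in WT DN (log2 -4.82, SE 0.64, adjusted p = 2.06e-05; -4.01 without WT DN 2). In aged libraries the log2 change was -3.90 (SE 1.25, adjusted p = 0.0278), against -1.95 without aged DN 5 (adjusted p = 0.0878) and -5.50 without aged DP 5. Here too, leaving out aged DP 1, 2, 3 or 4 ended the call (adjusted p from 0.0559 to 0.0658), and with the replicate block Cybb stayed called at a lower adjusted p. In the young libraries, 14 of 14 B cell markers were also lower in DP and their sum ran from 152 to 523 CPM in young DN and from 26.9 to 34 CPM in young DP. The dendritic cell marker sum was 264 to 858 CPM in young DN and 44.1 to 56.3 CPM in young DP, and that of macrophage and monocyte markers 35.9 to 156 and 10.6 to 17.0 CPM. The dendritic cell list includes the antigen presentation genes Cd74, H2-Aa, H2-Ab1, H2-Eb1 and Ciita. B cells express these too, so its sum does not tell the 2 cell types apart. No gene of these 3 lists was at 0 in a whole group of the young libraries, and the part of such cells in the levels of Scd1 and Cybb was not tested.

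The oxygenases were near the limit of detection in DP cells. Alox5, which makes the precursor of leukotrienes and is known from granulocytes and other myeloid cells, read 2.13, 4.66, 12.3, 3.52 and 2.72 CPM in young DN. It had no count in any young DP library, a total of 394 counts against 0, so it was at least 120.1-fold higher in young DN, using a floor of 3 counts over the group on the TMM scale (adjusted p = 1.36e-05). WT DN read 0.614 to 3.11 CPM and WT DP again had no count, at least 30.9-fold apart; Alox5 did not pass the filter on low counts there. In aged libraries 44 counts in DN stood against 1 in DP, a ratio per scaled total of 44.2 with an exact 95% interval of 7.535 to 1786 that covers counting error only. Ptgs2, the inducible cyclooxygenase, read 7.12, 4.41, 14.2, 1.76 and 2.33 CPM in young DN and had 1 count in 1 of 5 young DP libraries. The ratio of counts per scaled total was 435 (77.8 to 17230, adjusted p = 1.56e-06). In aged libraries Ptgs2 fell by 5.50 on the log2 scale (SE 0.87, adjusted p = 0.000812), from 213 counts in DN to 4 in DP and with no overlap.

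Neutrophil markers differed between the young stages as well. Of 9 neutrophil markers tested, 9 were lower in young DP, where 36.5% of all genes tested were. Ly6g, Elane, Cxcr2 and Retnlg had no count in any young DP library. The sum of all 10 was 284 to 1036 CPM in young DN and 0.783 to 3.07 CPM in young DP. Among the 9 tested, 3 were at 0 in the whole young DP group. Markers this low in DP reach the test through young DN, so the 9 calls could hardly have gone the other way. Young DN 3 had the highest neutrophil sum of the 35 libraries and also the highest Alox5 and Ptgs2. In WT DN the highest Alox5 (3.11 CPM), Ptgs2 (2.63 CPM) and neutrophil sum (609 CPM) were all in WT DN 4. Alox5 was 0.549 to 1.64% of the neutrophil sum in young DN, 0.216 to 0.915% in WT DN and 0.51 to 4.3% in aged DN. Ptgs2 was 0.471 to 2.39% of that sum in young DN, 0.295 to 0.523% in WT DN and 2.55 to 90.3% in aged DN, so its share was higher in every aged DN library than in any other DN library. Both ratios were chosen after the values were seen. The part of neutrophil RNA in these levels was not tested.

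Aifm2, the ubiquinone reductase, was low in all groups. It read 0.648 to 1.93 CPM in young DN and had 4 counts in total in young DP, in 2 of 5 libraries. The log2 change was -4.12 in young DP (SE 0.67, adjusted p = 6.09e-05) and -5.44 without young DP 1, which holds 3 of the 4 counts. In aged libraries it was -3.38 (SE 0.96, adjusted p = 0.0171), -2.46 without aged DN 1 and -4.55 without aged DP 4. Without the 4 aged libraries that stand apart it was -1.76 with an adjusted p of 0.065. In the other 2 stage comparisons, 6 of 9 genes tested were called in aged libraries (1 higher and 5 lower, with 43.2% of all genes tested called, 18.6% higher and 24.6% lower) and 5 of 7 in WT libraries (2 higher and 3 lower, with 63.9% called, 30.2% higher and 33.7% lower). Ptgs2 and Aifm2, with 4 and 15 counts in all in aged DP, likewise reached the test only through aged DN.

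**Figure D2:**
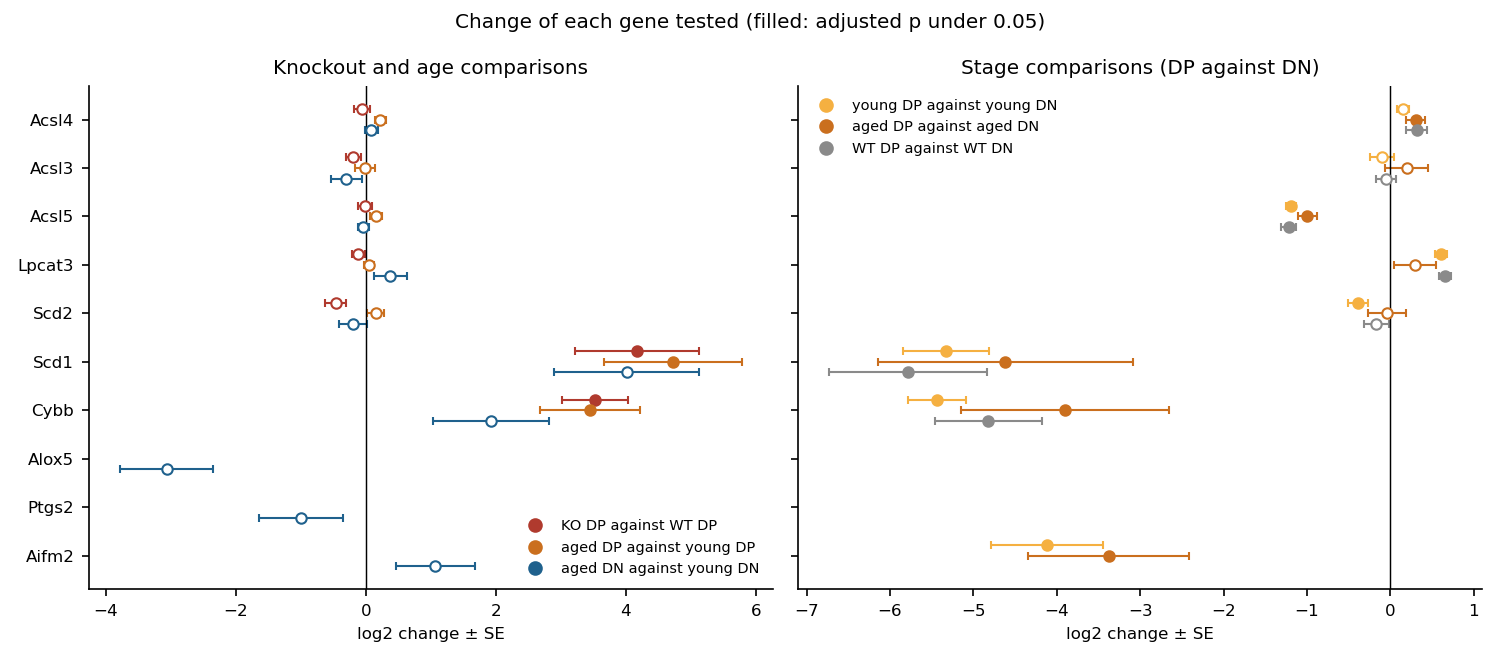
Log2 change ± SE of each gene tested, in the knockout and age comparisons (left) and the DP against DN comparisons (right); filled circles passed an adjusted p under 0.05. Alox5 and Ptgs2 are left out of the right panel because their DP groups hold 0 to 4 counts; Scd1 and Cybb lie above 3 in KO DP and aged DP and under -3 in the stage comparisons.

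The libraries labelled as Mettl3 knockout were compared with their controls within DP cells, KO DP against WT DP. Scd1 and Cybb rose, and Acsl4, Acsl3, Acsl5, Lpcat3 and Scd2 did not pass the test. Of the 7 genes tested, 2 were called higher and 0 lower; over all 13233 genes tested 1.48% were called higher and 0.113% lower, 1.59% either way. The median log2 change of the 7 was -0.06, and that of all genes -0.01.

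Scd1 read 61.3, 0, 15.8, 25.4 and 19.2 CPM in KO DP and 0.869, 3.07, 0.683, 1.66 and 0.471 CPM in WT DP. 4 of the KO libraries lay above every WT library, and KO DP 2 had no count in 12391908, which allows up to 0.224 CPM. The change was 18-fold (log2 4.17, SE 0.95, adjusted p = 0.0464). Left out in turn, 9 of the 10 libraries ended the call (adjusted p up to 0.161), the log2 change was 3.48 without KO DP 1, and without KO DP 2 it was 4.48 with an adjusted p of 3.31e-05. KO DP 2 is the library with the fewest genes counted. Cybb read 34.2, 8.44, 6.16, 14.3 and 15.3 CPM in KO DP and 1.52, 1.64, 1.57, 1.81 and 0.314 CPM in WT DP. The groups did not overlap, and the rise was 11.5-fold (log2 3.52, SE 0.50, adjusted p = 0.00299). Cybb was called in all 16 alternatives, with an adjusted p of at most 0.0418.

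Markers of other cell types were higher in the same libraries. Of 14 B cell markers 13 were called higher in KO DP, with sums of 121 to 353 CPM against 29.0 to 59.9 CPM in WT DP. So were 5 of 7 dendritic cell markers tested (328 to 690 CPM against 58.9 to 102 CPM), 3 of 7 macrophage and monocyte markers (27.9 to 97.8 CPM against 17.3 to 24.5 CPM) and 3 of 4 neutrophil markers (14.3 to 47.0 CPM against 1.73 to 8.67 CPM). None of these markers was at 0 in a whole group apart from Cxcr2 in WT DP. The dendritic cell list, here and in the age comparisons below, includes the genes named above that B cells express too. Stage markers differed too: 3 of 11 DN stage markers were called higher in KO DP (median log2 1.17), with overlapping sums of 491 to 1085 CPM against 404 to 627 CPM. None of 10 DP stage markers was called (median log2 -0.23), while their sum was lower in every KO library, 11345 to 15597 CPM against 17092 to 19344 CPM. The plasma cell list had 1 of 6 called higher, the gamma delta and innate-like list 2 of 5, and the NK and innate lymphoid list 2 of 7. KO DP 1 had the highest B cell, dendritic cell and macrophage sums of the KO libraries and also the highest Scd1 and Cybb. KO DP 2, with no Scd1 count, had the lowest B cell sum of the KO libraries, 121 CPM, and the highest neutrophil sum. Adipocyte markers summed to 16.8 to 27.0 CPM in KO DP and 12.9 to 18.9 CPM in WT DP, with Adipoq and Lep at 0 in both groups. Scd1 was 0 to 17.4% of the B cell sum in KO DP, 1.63 to 5.14% in WT DP and 6.75 to 12.2% in young DN, a ratio chosen after the values were seen. The part of these cells, and of the stages, in the rises of Scd1 and Cybb was not tested.

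**Figure D3:**
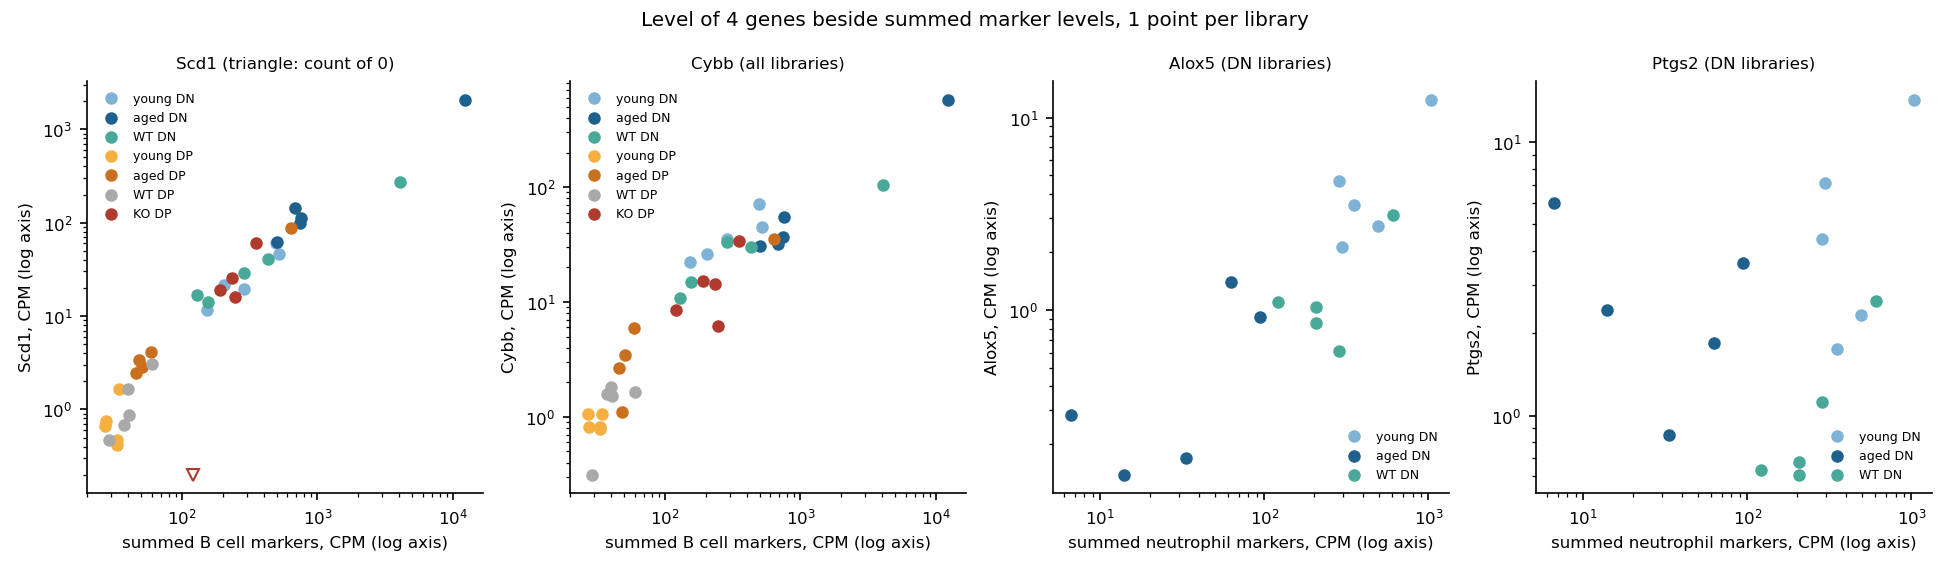
CPM of Scd1 and Cybb against the summed B cell markers in the 35 libraries, and of Alox5 and Ptgs2 against the summed neutrophil markers in the 15 DN libraries (log axes); 1 point per library, and an open triangle marks a count of 0. Aged DN 5 and WT DN 2 have the highest B cell sums and the highest Scd1 and Cybb, KO DP 2 has no Scd1 count at a B cell sum of 121 CPM, and young DN 3 has the highest neutrophil sum.

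Scd2, the desaturase of highest level, read 831, 425, 613, 546 and 444 CPM in KO DP and 753, 816, 749, 840 and 840 CPM in WT DP. 4 KO libraries lay under every WT library and KO DP 1 lay within their range. The difference was not called (log2 -0.46, SE 0.16, adjusted p = 0.221), and it was called without KO DP 1 (log2 -0.64, adjusted p = 0.0333). Acsl4 read 52.7 to 84.2 CPM in KO DP and 70.7 to 84.9 CPM in WT DP (log2 -0.06, SE 0.13, adjusted p = 0.863). Lpcat3 read 60.2 to 83.7 CPM against 78.6 to 86.2 CPM (log2 -0.12, SE 0.10, adjusted p = 0.607). Acsl3 (log2 -0.20, SE 0.12, adjusted p = 0.459) and Acsl5 (log2 -0.02, SE 0.11, adjusted p = 0.963) overlapped between the groups as well. Alox5, Ptgs2 and Aifm2 were too low to be tested: Alox5 had 14 counts in KO DP, 12 of them in KO DP 1, against 0 in WT DP, and Ptgs2 had 10 against 0, which is at least 4.06-fold and 3.02-fold by the floor of 3 counts. Aifm2 had 22 counts in KO DP and 6 in WT DP.

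Age was compared within each stage. In aged DP against young DP, Scd1 and Cybb were again the genes called, both higher in aged cells. Of the 7 genes tested, 2 were called higher and 0 lower, where 0.62% of 13059 genes were called higher and 0.322% lower, 0.942% either way. Scd1 read 4.09, 2.43, 3.42, 2.83 and 87.4 CPM in aged DP and 0.411 to 1.63 CPM in young DP, with no overlap (log2 4.72, SE 1.06, adjusted p = 0.0465). Cybb read 5.88, 2.65, 1.09, 3.46 and 35.2 CPM in aged DP and 0.783 to 1.07 CPM in young DP (log2 3.45, SE 0.77, adjusted p = 0.0437). The ranges of Cybb just miss each other. Aged DP 5 set the size of both changes: without it the log2 change was 2.02 for Scd1 (adjusted p = 0.0131) and 1.84 for Cybb (0.0355). Without aged DP 1 and aged DP 5 the values were 1.87 (adjusted p = 0.0547) and 1.39 (0.158), neither called. Left out in turn, each of the 5 young DP libraries ended both calls (adjusted p up to 0.136 and 0.121).

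Some lists of cell type markers were also higher in the same aged libraries, and others were not. B cell markers summed to 59.0, 45.4, 47.7, 50.8 and 639 CPM in aged DP and 26.9 to 34 CPM in young DP, and 4 of 10 tested were called higher. Dendritic cell markers (5 of 8 called higher) summed to 92.6 to 1028 CPM in aged DP and 44.1 to 56.3 CPM in young DP, highest in aged DP 5. Macrophage and monocyte markers (2 of 5 called higher) summed to 17.4 to 70.7 CPM against 10.6 to 17.0 CPM, again highest in aged DP 5. In plasma cell markers 2 of 7 and in gamma delta and innate-like T cell markers 1 of 5 were called higher. Some other lists did not rise. The neutrophil sum was 0.152 to 1.23 CPM in aged DP and 0.783 to 3.07 CPM in young DP. The thymic epithelial sum was 18.8 to 23.4 CPM against 24.9 to 34.2 CPM. That of NK and innate lymphoid markers was 96.2 to 138 CPM against 103 to 122 CPM. This list holds Gata3, also a T lineage marker here, and Il7r, also a DN stage marker. Its sum is therefore not of NK and innate lymphoid cells alone and cannot show whether they rose. Of the stage markers, 2 of 10 for DP and 1 of 8 for DN were called lower in aged DP. Their part in the rises of Scd1 and Cybb was not tested. Acsl4, the arachidonate-preferring synthetase, read 80.8 to 99.0 CPM in aged DP and 70.2 to 89.0 CPM in young DP, overlapping and not called (log2 0.22, SE 0.08, adjusted p = 0.254). Acsl3, Acsl5, Lpcat3 and Scd2 differed by -0.01 to 0.15 on the log2 scale, and none was called (adjusted p from 0.585 to 0.988). Alox5, Ptgs2 and Aifm2 had 1, 4 and 15 counts in all in aged DP and 0, 1 and 4 in young DP, and were not tested.

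In aged DN against young DN none of the 10 genes passed the test, where 0.267% of 13873 genes did; edgeR gave 3049 genes an unadjusted p under 0.05, and DESeq2 called 819 genes and 1 of the 10. That gene was Alox5, which read 0.285, 0.918, 1.40, 0.139 and 0.170 CPM in aged DN and 2.13 to 12.3 CPM in young DN. The groups did not overlap (log2 -3.07, SE 0.72, adjusted p = 0.114 by edgeR, unadjusted p = 0.00151, and an adjusted p of 0.000834 by DESeq2). Neutrophil markers summed to 6.62 to 94.1 CPM in aged DN and 284 to 1036 CPM in young DN, with a median log2 change of -3.30 over 9 tested and 0 called, and their part in the Alox5 values was not tested. Ptgs2 overlapped between the groups, at 0.848 to 5.98 CPM in aged DN and 1.76 to 14.2 CPM in young DN (log2 -0.997, SE 0.64, adjusted p = 0.338). Aged DN 1 had the lowest neutrophil sum of the aged DN libraries and the highest Ptgs2.

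Scd1 in aged DN read 62.1, 143, 99.7, 112 and 2049 CPM, each above the young DN maximum of 60.6 CPM. It was not called (log2 4.02, SE 1.12, adjusted p = 0.142). Without aged DN 5 the log2 change was 1.71 (adjusted p = 0.133), and without both aged DN 1 and aged DN 5 it was 1.88 and called (adjusted p = 0.0197). B cell markers summed to 506 to 12304 CPM in aged DN and 152 to 523 CPM in young DN, with a median log2 change of 3.33 over 14 tested and 0 called. Scd1 was 12.3 to 21% of that sum in aged DN and 6.75 to 12.2% in young DN, ranges that just miss each other, and the part of B cells was not tested. Cybb read 31.0, 32.0, 36.7, 54.4 and 570.4 CPM in aged DN, and 4 of these lay within the young DN range (log2 1.92, SE 0.90, adjusted p = 0.237; 0.03 without both libraries that stand apart). Aifm2 read 6.62 CPM in aged DN 1 and 0.825 to 1.61 CPM in the other 4 (log2 1.07, SE 0.60, adjusted p = 0.293; 0.13 without aged DN 1). Fibroblast markers too were highest in aged DN 1, at 299 CPM against 13.6 to 83.7 CPM in the other aged DN libraries.

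Whether the effect of age differed between the stages was tested as an interaction over the 4 wild-type groups. None of the 10 genes was called by edgeR, where 1 of 14722 genes (0.00679%) was, 2229 had an unadjusted p under 0.05, and DESeq2 called 85. The difference of log2 changes, DP minus DN, was 0.72 for Scd1 (SE 1.70, adjusted p = 0.843), 1.55 for Cybb (SE 1.35, adjusted p = 0.547), 0.16 for Acsl4 (SE 0.13, adjusted p = 0.519) and -0.31 for Lpcat3 (SE 0.27, adjusted p = 0.542). The standard errors of Scd1 and Cybb leave room for large differences in either direction.

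The 2 kinds of control of 10 weeks were set side by side, since the Cre-carrying mice differ from the mice labelled wild type. WT DP against young DP gave 0 calls among 7 genes tested, where edgeR called 0.589% of 13083 genes (0.229% higher and 0.359% lower) and gave 2053 an unadjusted p under 0.05. DESeq2 also called none of the 7, though over all genes it called more than edgeR did. The changes ran from -0.05 (Scd2) to 0.78 (Scd1, SE 0.52, adjusted p = 0.484). In WT DN against young DN, 1 of 10 was called higher and 2 lower, where 14.2% of 13702 genes were called higher and 10.9% lower, 25.1% either way. Acsl5 was higher in WT DN, 186 to 212 CPM against 162 to 182 CPM (log2 0.18, SE 0.06, adjusted p = 0.0456), a call that ended under 4 alternatives and without 8 of 10 libraries. Alox5 (log2 -1.94, SE 0.56, adjusted p = 0.026) and Ptgs2 (log2 -2.42, SE 0.62, adjusted p = 0.0163) were lower in WT DN, with changes of -1.29 (adjusted p = 0.0712) and -1.79 (0.042) without young DN 3. The Alox5 call also ended without WT DN 1, 3 or 5 (adjusted p from 0.0518 to 0.0582), while the Ptgs2 call held with each library left out in turn. Neutrophil markers summed to 120 to 609 CPM in WT DN and 284 to 1036 CPM in young DN.

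Other genes of the same pathways were taken from 6 lists. In KO DP against WT DP, 1 of 66 genes tested over these lists was called, a share near the 1.59% over all genes. It was Ncf4, a cytosolic subunit of the NADPH oxidase. It rose from 0.938 ± 0.385 CPM in WT DP to 5.62 ± 1.15 CPM in KO DP (log2 2.59, SE 0.38, adjusted p = 0.00325), in the libraries in which the B cell, dendritic cell, macrophage and neutrophil markers were higher; their part in it was not tested. The median change of the 10 NADPH oxidase genes tested was 0.05, against -0.01 for all genes. The medians of the other 5 lists ran from -0.22, in the acyl-CoA synthetase and polyunsaturate synthesis list, to 0.11, in the lipid radical defence list. In aged DP against young DP and in aged DN against young DN no gene of the 6 lists was called, with list medians from -0.04 to 0.14 and from -0.51 to 0.44.

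Between young DP and young DN 58 of the 69 genes tested over the 6 lists were called, 16 higher and 42 lower, where 33.9% of all genes were called higher and 36.5% lower, 70.4% either way. All 7 genes tested of acyl-CoA synthetase and polyunsaturate synthesis were lower in DP (median log2 -1.48, all genes -0.01). Fads2, the desaturase that begins polyunsaturate synthesis, fell from 131 ± 13.8 to 22.5 ± 8.43 CPM (adjusted p = 2.39e-08), and Elovl5, a polyunsaturate elongase, from 220 ± 10.5 to 116 ± 3.65 CPM (5.87e-10). Of 13 phospholipid remodelling genes 4 were higher and 6 lower (median -0.09). Pla2g4a, the cytosolic phospholipase that releases arachidonate, fell by 3.77 on the log2 scale and the acyltransferase Mboat1 by 1.995, while the acyltransferase Agpat3 rose by 0.46 and the ether lipid enzyme Agps by 0.20. In lipid oxygenation 1 of 9 was higher, the P450 reductase Por (log2 0.36), and 6 lower (median -0.94). Alox5ap, which presents arachidonate to the Alox5 enzyme, fell from 12 ± 2.79 to 0.927 ± 0.33 CPM (adjusted p = 6.23e-09). Lta4h, which hydrolyses the leukotriene that the Alox5 enzyme makes, fell from 347 ± 8.37 to 187 ± 11.4 CPM (adjusted p = 1.91e-09).

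Of 17 lipid radical defence genes 2 were higher and 12 lower (median -0.51), beside the same 33.9% and 36.5% over all genes. Coq2, an enzyme of ubiquinone synthesis, fell by 1.77, while Gch1, which starts tetrahydrobiopterin synthesis, rose by 0.40 and the quinone reductase Nqo2 by 0.44. The NADPH oxidase list divided, with 5 of 9 higher and 3 lower (median 0.25). The cytosolic subunit Ncf4 (log2 -5.05) fell, as Cybb did, while Vav1 (0.78) and Rac1 (0.25), signalling proteins that T cells use in other pathways too, rose. Of 14 genes of saturated and monounsaturated fatty acid synthesis 4 were higher and 8 lower (median -0.34). The elongase Elovl6 fell by 2.43 and the nuclear receptor Rxra by 1.44, while Insig2, which holds the sterol-sensing machinery in the endoplasmic reticulum, rose by 0.84 and the oxysterol receptor Nr1h2 by 0.50.

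**Figure D4:**
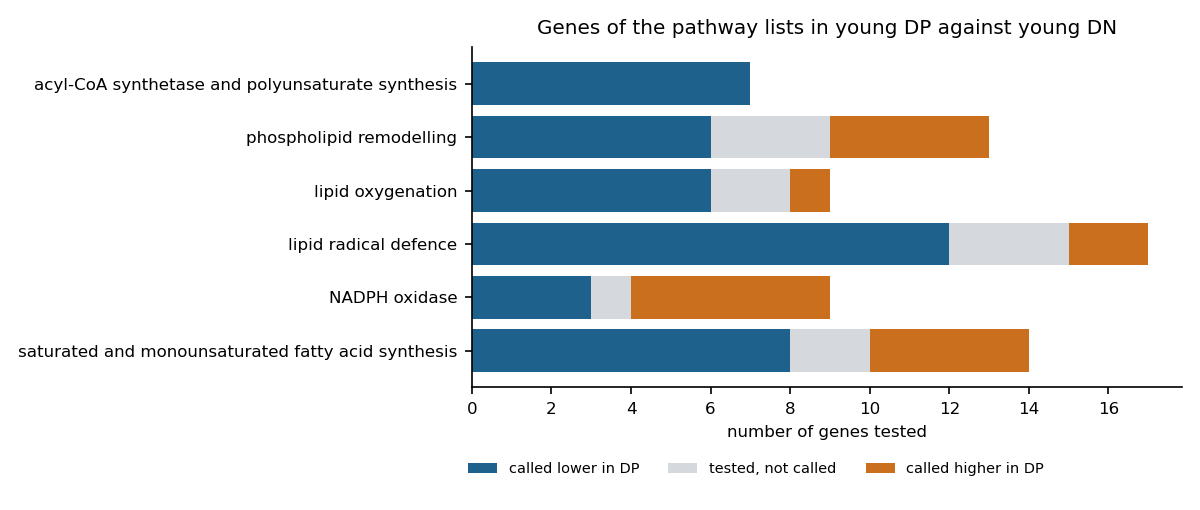
Number of genes tested in each of the 6 pathway lists in young DP against young DN (horizontal axis), divided into genes called lower in DP, not called and called higher. In the acyl-CoA synthetase and polyunsaturate synthesis list all 7 genes are lower, and in the NADPH oxidase list 5 of 9 are higher.

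The genes nearest in profile were sought for each of the 6 genes whose group means spanned at least 1 on the log2 scale, by the root mean square difference of centred log2 CPM over the 35 libraries among 10828 genes. Nearest to Scd1 were Chst3 (0.55), Cxcr5 (0.67) and Mef2c (0.69), and to Cybb Unc93b1 (0.61), Spib (0.64) and Napsa (0.68). Alox5 had C5ar1 (0.75), Itgb2l (0.79) and Clec4e (0.85), and Ptgs2 had Thbd (0.79), Atp2b4 (0.88) and Pdgfrb (0.89). For Aifm2 they were Prr13 (0.73), Agpat2 (0.76) and Cd44 (0.77), and for Acsl5 Got2 (0.16), Nars (0.16) and Xrcc5 (0.17). Spib is also one of the B cell markers and Pdgfrb one of the fibroblast markers summed above. The group means of Acsl4, Acsl3, Lpcat3 and Scd2 spanned 0.40 to 0.96.

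Reads of some of these genes could also be assigned to others. In the GENCODE M21 transcripts, 50-base windows were shared with another gene for 10.2% of Lpcat3 (Emg1, which overlaps it on the other strand), 5.53% of Acsl5 (mainly Zdhhc6), 4.66% of Scd1 and 4.01% of Scd2 (both with each other, Scd3 and Scd4) and 4.05% of Acsl3 (Utp14b). Acsl4, Alox5, Aifm2, Ptgs2 and Cybb shared none. In the table, Aifm2 overlaps H2afy2 on the other strand. The sources used here do not say if reads were counted by strand; the values of Lpcat3 and Aifm2 are therefore uncertain to that extent. Utp14b overlaps Acsl3 on the same strand, and the values of Acsl3, Acsl5, Scd1 and Scd2 are uncertain for the windows they share.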

How the data were processed

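The authors deposited a table of whole-number read counts per gene for 35 libraries, not normalized, with a gene length that was used for levels per kilobase. Per the submitters' processing notes, the tools were STAR 2.5.1 and HTSeq 2.0.3, with Trim Galore 0.4, bcl2fastq, DESeq2 and Subread also listed. Their order, the program that made the counts and the role of either build listed (GRCm39, mm10) are not given in the sources used here; identifiers are of the C57BL/6NJ annotation. Per the labels' protocols, total RNA went into libraries by BGI methods.

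Tests on counts used edgeR 4.0.16 under R 4.3.3 (TMM, quasi-likelihood test, filterByExpr with a minimum count of 10 and total of 15, Benjamini-Hochberg adjustment over all genes tested, 2-sided, threshold 0.05), on only the 2 groups of a comparison (4 for the interaction), without a replicate block. The step was tested on simulated data with the same spread for all genes, changes only in well-counted genes and no outlying library. That test therefore does not bear on genes with few counts or with a single library far from the others. A group with a count of 0 was given a floor of 3 counts over the TMM-scaled total, and floors and intervals cover counting error only.

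The genes followed, the pathway and marker lists and the tests were chosen with earlier results of these data known. Named list genes are up to 2 called higher and 2 called lower per list and main comparison, by smallest adjusted p, of which some are not reported here; genes of like profile need a mean of at least 1 CPM and were ranked on log2 CPM (prior count 2). Comparisons against young libraries share those libraries. Alternatives were size factors of the DESeq2 kind (RLE), DESeq2 1.42.0, no filter on low counts, one fit over all 35 libraries, a replicate block, leaving out each library in turn, and leaving out the libraries that stand apart.

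Same-numbered libraries of aged DP and aged DN deviated together from their group means (correlations of 0.169 to 0.348, all 5 pairs above 0.1, across genes, which are not independent). The numbers are shared labels of the titles; in no other comparison did all pairs pass 0.1. Promoter and transcript sequences came from RefSeq (GRCm38.p6) and GENCODE M21, read with Python 3.11.15. Genes of the marker and pathway lists that the table does not name were not analysed here.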

Additional observations from a re-analysis of the deposited data

Results flagged for a closer look

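Of 67 sets of 5 libraries with a count of the gene, 16 had a highest or lowest library set far from the other 4, with a gap to the nearest that took more than 0.71 of the whole range; chance flags about 1 in 20 sets of independent normal values. These sets share libraries and hold low counts, and a set with a count in 1 library alone, as in 2 of the 16, meets the threshold by construction, so the number of sets is not to be read against that rate.

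Scd1 in aged DN 5 read 2049 CPM against 62.1 to 143 CPM in the other 4, in WT DN 2 271 CPM against 14.3 to 40.6 CPM, in aged DP 5 87.4 CPM against 2.43 to 4.09 CPM, and in young DP 3 1.63 CPM against 0.411 to 0.75 CPM. Cybb stood out in the same 3 libraries first named, at 570.4 CPM in aged DN 5, 104 CPM in WT DN 2 and 35.2 CPM in aged DP 5, and was low in WT DP 5 at 0.314 CPM against 1.52 to 1.81 CPM.

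Alox5 in young DN 3 read 12.3 CPM against 2.13 to 4.66 CPM, in WT DN 4 3.11 CPM against 0.614 to 1.1 CPM, in KO DP 1 0.744 CPM against 0 to 0.138 CPM, and in aged DP 2 0.0758 CPM, which is 1 count against 0 in the other 4. Ptgs2 in WT DN 4 read 2.63 CPM against 0.608 to 1.12 CPM, and in young DP 3 0.071 CPM, again 1 count. Aged DN 1 held both remaining values, with Lpcat3 at 109.8 CPM against 37.3 to 56.1 CPM and Aifm2 at 6.62 CPM against 0.825 to 1.61 CPM.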

How the results depend on the processing

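No change of sign occurred among the genes called, and under the alternatives 1227 values of single genes stayed on their side of the threshold, 70 lost a call and 10 gained one. In KO DP against WT DP (211 genes, 2 of the 10 followed), DESeq2 called 536 genes, the replicate block 61 and leaving out KO DP 2 534; the single fit over all 35 libraries and the replicate block each called 1 of the 10, Cybb. In aged DP against young DP (123 and 2), DESeq2 called 317 genes and 1 of the 10 (it gave Scd1 no adjusted p), no filter 353 and the single fit 30 genes; the single fit, the replicate block and leaving out both libraries that stand apart each called 0 of the 10. In aged DN against young DN (37 and 0), DESeq2 called 819 genes and 1 of the 10 (Alox5), the single fit 2160 and 2 (Alox5 lower, Scd1 higher), the replicate block 1 gene, and leaving out the libraries that stand apart 738 and 1 (Scd1). In WT DP against WT DN (8622 and 5), no filter and the single fit each called 8 of the 10. In WT DP against young DP (77), DESeq2 called 447 genes, no filter 149, the single fit 4 and the replicate block 8. In WT DN against young DN (3439 and 3), the single fit called 1752 genes and 1 of the 10, and the replicate block 1. For the interaction (1), DESeq2 called 85 genes, the single fit 21 and leaving out the libraries that stand apart 72. The causes were not tested.

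Leaving out 1 library at a time gave 101 to 534 genes and 1 to 2 of the 10 in KO DP against WT DP, 58 to 136 and 0 to 2 in aged DP against young DP, 10 to 185 and 0 in aged DN against young DN, 9350 to 9817 and 8 to 9 in young DP against young DN, 4855 to 6589 and 3 to 6 in aged DP against aged DN, 8234 to 9203 and 4 to 8 in WT DP against WT DN, 23 to 98 and 0 in WT DP against young DP, 2102 to 4392 and 1 to 3 in WT DN against young DN, and 1 to 7 and 0 for the interaction. With the replicate block, aged DP against aged DN, where the numbers pair the libraries, gave 5447 genes and the same 6 calls, with adjusted p-values of 0.000141 for Scd1 and 0.000491 for Cybb. The titles number the DN and DP libraries of the young and of the WT mice in the same way. In each of these stage comparisons 3 of 5 libraries correlated best with their own number, and whether they are pairs is not known. With the block, young DP against young DN kept 8 calls. Comparisons between groups of different age or genotype share only a number. In those the replicate block also ended the calls on Scd1 in KO DP (adjusted p = 0.327), on Scd1 and Cybb in aged DP (0.0673 and 0.0696) and on Acsl5 and Ptgs2 in WT DN against young DN (0.124 and 0.0569). Only in aged DP and aged DN did every library correlate best with its own number. Depth limits Alox5, Ptgs2 and Aifm2 in DP cells, where a group holds 0 to 22 counts.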
